A study of Mus musculus with 6 samples.

Results

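The genes described here encode the machinery with which nerve terminals fill vesicles with transmitter, hold them at the release site and fuse them with the membrane. They are the 45 genes of a list matched by symbol in the 6 deposited tables, and all 45 were found, with 1 row each, among 36629 genes. Values are FPKM, fragment counts scaled to the length of the gene model and to the size of the library, so that levels can be set side by side between genes. A gene was tested where 3 or more libraries held 1 FPKM or more of it, which 43 of the 45 did. The exceptions were the vesicular glutamate transporters Slc17a7 and Slc17a8.

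The libraries came from spinal cord of wild-type C57/BL6 mice aged 3 to 5 weeks, and the purpose given for the series was to compare injured with uninjured cord. The sham group (3 libraries) had a laminectomy at T9 and T10, in which bone is taken away to lay the cord open. The SCI group (spinal cord injury, 3 libraries) had the laminectomy and then a crush of the cord by a vascular clip (60 g force, 5 seconds). The segments T8 to T12 were taken 3 days after surgery according to the protocol, while the design text speaks of the centre of the injury. A sample label calls the sham animals untreated, while the protocol gives them the laminectomy. Whether each library came from a single animal is not stated, so p-values compare libraries, and how far they extend to animals is unknown.

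Transmitter release rests on SNARE proteins. A SNARE on the vesicle (a synaptobrevin, gene family Vamp) zips together with syntaxin and SNAP-25 on the plasma membrane and pulls the membranes into contact. Synaptotagmins sense the calcium that enters with an action potential, complexins clamp and then assist the fusion, and Munc13, RIM, Bassoon and Piccolo place and prime vesicles at the active zone. In the spinal cord most fast inhibition uses glycine and GABA, and most excitatory interneurons use the glutamate transporter encoded by Slc17a6.

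Summed FPKM were between 716215 and 734791 per library, and the depth in reads is unknown. Libraries of a group correlated with a Pearson r of at least 0.987 (sham) and 0.971 (SCI) on log2(FPKM + 1). SCI libraries differed from each other in markers of other tissues. Haemoglobin genes took 0.656%, 6.16% and 0.211% of the FPKM in SCI replicates 1, 2 and 3, against 0.109% to 0.126% in the sham group. Scn10a, a sodium channel of sensory ganglion neurons, was listed at 0 in 5 libraries and at 6.60 FPKM in SCI replicate 3. The 6 skeletal muscle markers summed to 39.4, 9.84 and 372 FPKM in SCI replicates 1, 2 and 3, against 15.5 to 93.3 in the sham group, and none of the 5 tested passed. Neuronal markers were present in every library: the 12 pan-neuronal genes summed to 5566 to 6343 FPKM over the sham group and to 2543, 1821 and 3140.1 in SCI replicates 1, 2 and 3. In bulk tissue fewer neurons and less RNA per neuron cannot be told apart.

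Most of the release machinery was lower in the injured cord. Of the 43 members tested, 34 were lower, 3 were higher and 6 did not pass (limma, adjusted p under 0.05 over all genes tested), where 30.8% of all 17435 genes tested were lower and 26.7% higher, 57.5% in all. The median log2 change was -1.03 over the members and -0.076 over all genes tested, and 23 of the 43 members had a log2 change of -1 or below. Amounts by which a gene rose or fell are given below as log2 changes unless a fold or FPKM is named. The 45 genes together took 0.802% to 0.861% of the FPKM in the sham group, and 0.454%, 0.326% and 0.491% in SCI replicates 1, 2 and 3. All SCI libraries lay below all sham libraries for 35 of the 43 members tested, against 36.9% of all genes tested, and above them for 3, against 30.7%. The 3 that rose were Vamp8, Vamp3 and Syt4. Leaving out any 1 library ended none of these 37 calls. SCI replicate 2, which had the highest haemoglobin share, was the lowest injured library for 40 of the 43 members (56.0% of all genes tested), and without it 34 members were still lower. SCI replicate 3 was the highest injured library for 26 members (37.5% of all genes tested), and without it 34 were lower as well. Markers of myelinating cells were mostly lower too: 6 of 8 oligodendrocyte markers were lower and 1 higher (median log2 change -0.56, all 8 lowest in SCI replicate 2 among the injured), and 4 of 6 Schwann cell markers were lower and 1 higher (median -1.45). Their sums were 7719 to 8345 and 777 to 2148 FPKM in sham, and 4709 to 6095 and 289 to 521 in SCI. The part of cell composition in the members' fall was not tested.

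**Figure D1:**
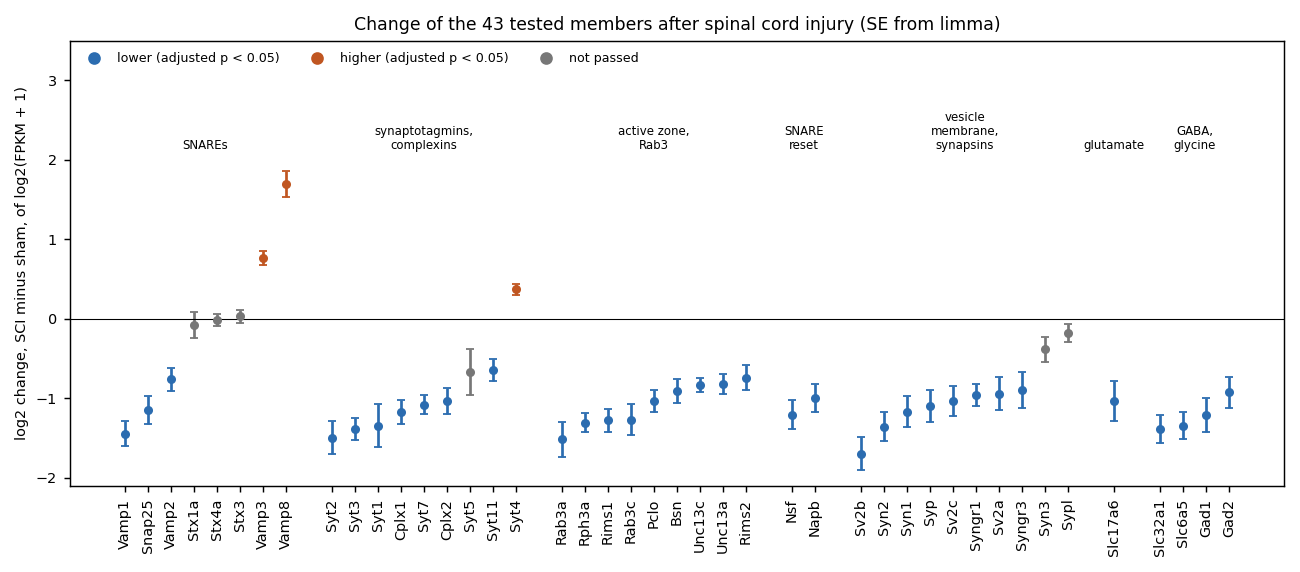
Log2 change (SCI minus sham, on log2(FPKM + 1)) of each tested member with limma's standard error, grouped by role and ordered within a role. The 34 blue genes lie between -1.69 (Sv2b) and -0.64 (Syt11), the 3 orange genes Vamp3, Vamp8 and Syt4 lie above 0, and the 6 grey genes did not pass.

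Among the SNAREs, 3 of 8 were lower, 2 were higher and 3 did not pass, near the shares over all genes tested (30.8% lower, 26.7% higher). Snap25 (ENSMUSG00000027273, chromosome 2 from 136713453 to 136782428 on the plus strand), the plasma membrane SNARE of neurons that botulinum toxin A cuts, was at 540.3, 593 and 478 FPKM in the sham libraries and 263, 185 and 292 in the SCI libraries. Every injured library was below every sham library, a 2.18-fold fall (log2 change -1.14, SE 0.17, adjusted p = 0.0015). Vamp1, the synaptobrevin of spinal cord and motor terminals, was at 307, 339 and 295 FPKM in the sham libraries and 119, 89.6 and 141 in the SCI libraries, a 2.69-fold fall (log2 change -1.44, SE 0.16, adjusted p = 0.00038). Vamp2, the synaptobrevin of most forebrain synapses, had a smaller fall, from 173 ± 16.4 to 103 ± 18.8 FPKM (SD, n = 3 per group; log2 change -0.76, SE 0.15, adjusted p = 0.0039), and its groups did not overlap either. On sham levels Vamp1 was the more abundant of the pair, and in the injured cord their means were 117 and 103 FPKM.

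Vamp8, or endobrevin, serves fusion of late endosomes and secretory granules outside neurons, and it had the largest log2 change upward of the 43 tested members. It was at 14.6, 10.9 and 11.8 FPKM in the sham libraries and 37.2, 52.6 and 38.5 in the SCI libraries, a 3.44-fold rise (log2 change 1.70, SE 0.16, adjusted p = 0.00019). Vamp3, or cellubrevin, the widespread SNARE of recycling endosomes, was at 43.4, 47.2 and 52.2 FPKM in the sham libraries and 84.2, 84.5 and 75.9 in the SCI libraries (log2 change 0.77, SE 0.091, adjusted p = 0.00051). The rise in Vamp3 took place inside the span of Camta1, a gene on the same strand whose own value fell from 51.5 ± 1.52 to 24.7 ± 5.83 FPKM. Markers of microglia and macrophages moved in the same direction as Vamp8 and Vamp3: 12 of 12 were higher, and their summed level went from 314 to 390.5 FPKM in the sham libraries to 2541 to 3671 in the SCI libraries, highest in SCI replicate 2, which also had the highest Vamp8. No marker of that list was at 0 in any library. Endothelial markers were higher in 6 of 6 cases, with sums of 96.1 to 112 FPKM in the sham group, against 254 to 292 in the injured group, highest in SCI replicate 1. Neutrophil markers were higher in all 5 cases tested of 8, with sums of 17.2 to 45.9 FPKM in the sham group, against 134 to 648 in the injured group. Their sum was also highest in SCI replicate 2, as was that of the haemoglobin genes. Ly6g was at 0 in 2 sham libraries and Elane at 0 in 1 sham and 1 SCI library. The part of any of these cells in the rise was not tested.

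None of the 3 plasma membrane syntaxins of the list passed. Stx1a, which pairs with SNAP-25 at synapses, was at 15.7, 11.7 and 15.9 FPKM in the sham libraries and 14.6, 10.9 and 15.4 in the SCI libraries, and the groups overlapped (log2 change -0.077, SE 0.16, adjusted p = 0.71). Stx3, the syntaxin of ribbon synapses and epithelial surfaces, had a log2 change of 0.033 (SE 0.08), and Stx4a, a syntaxin of most cell types, one of -0.013 (SE 0.08). The sign of these small values was not stable: under quantile normalization Stx3 was at -0.013 and Stx4a at 0.0045, and under median-ratio scaling Stx4a was at 0.067.

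The promoters of Vamp1 and Vamp8 are shown because these paralogs, both on chromosome 6, moved furthest apart within a family. The sequences are RefSeq's on GRCm38.p6, 5′ to 3′ on the strand of the gene, and stop 1 base before the gene as the files list it: chr6:125215331-125215550 on the plus strand (220 bases) and chr6:72390704-72390917 on the minus strand (214 bases). Capitals mark a GC box, GGGCGG.
Vamp1: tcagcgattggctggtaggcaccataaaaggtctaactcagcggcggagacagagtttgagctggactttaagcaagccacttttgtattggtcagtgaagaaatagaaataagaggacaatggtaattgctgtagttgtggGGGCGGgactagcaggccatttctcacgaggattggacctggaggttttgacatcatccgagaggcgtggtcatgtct
Vamp8: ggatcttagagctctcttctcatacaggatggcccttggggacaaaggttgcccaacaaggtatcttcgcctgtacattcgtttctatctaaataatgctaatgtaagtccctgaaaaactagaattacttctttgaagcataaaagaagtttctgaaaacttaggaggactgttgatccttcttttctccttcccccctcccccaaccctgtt
The RefSeq table held promoters for 36 of the 45 members (49 sequences, since some genes have several starts). The 250 bases before each start were searched on both strands for 4 motifs. One was the GC box. Another was the cAMP response element, TGACGTCA. The remaining motifs were the left and the right part of RE1, the site of the neuronal gene repressor REST, spelled out beside Syn1 and Gad2. A GC box was found in 25 of the 49 sequences (51.0%), against 32.7% of all 32851 promoters in the table, and Vamp8 had none of the 4 motifs. The left part of RE1 was in 8.16% of the members' promoters against 5.73% of all, and the right part in 6.12% against 5.28%. These are matches of letters and not measured sites.

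Calcium sensors and complexins were lower in 7 of 9 cases. Syt2, the fast calcium sensor of spinal cord and brainstem synapses, was at 180.1, 196 and 175 FPKM in the sham libraries and 67.3, 46.0 and 86.6 in the SCI libraries, a 2.76-fold fall (log2 change -1.49, SE 0.21, adjusted p = 0.00098). Syt1, the corresponding sensor of forebrain synapses, was at 49.3, 42.0 and 52.1 FPKM in the sham libraries and 24.2, 10.9 and 22.4 in the SCI libraries, with its lowest value in SCI replicate 2 (log2 change -1.34, SE 0.27, adjusted p = 0.0048). Both fell to a similar share of their sham level, 36.3% for Syt2 and 40.1% for Syt1. Syt3, a sensor with high calcium affinity, fell by 1.39 on the log2 scale, and Syt7, which supports delayed release, fell by 1.08. Syt11, a form that does not bind calcium, fell by 0.64, the smallest fall that passed. For Syt5 the values were 26.8, 18.9 and 27.2 FPKM in the sham libraries and 20.8, 8.80 and 17.3 in the SCI libraries, so that SCI replicate 1 lay within the sham range, and the change of -0.67 (SE 0.29) did not pass (adjusted p = 0.089). It passed without SCI replicate 1 (log2 change -0.90, adjusted p = 0.038) and was at -0.32 without SCI replicate 2.

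Syt4 went the other way. This synaptotagmin, found on dense-core vesicles and known to be induced by activity, was at 83.6, 81.4 and 86.4 FPKM in the sham libraries and 105, 110.4 and 111 in the SCI libraries. The groups did not overlap, and the rise was small (log2 change 0.37, SE 0.067, adjusted p = 0.0029). The 3 injured values lay within 6 FPKM of each other, and SCI replicate 2, the lowest injured library for most members, was not the lowest for Syt4. Cplx1, the complexin of spinal cord synapses, was the most abundant member, at 1189.8, 1243 and 1093 FPKM in the sham libraries and 527, 419 and 636 in the SCI libraries, a 2.23-fold fall (log2 change -1.17, SE 0.15, adjusted p = 0.00076). Cplx2 was lower by 1.04 on the log2 scale, from 99.4 ± 9.93 to 48.6 ± 10.5 FPKM.

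**Figure D2:**
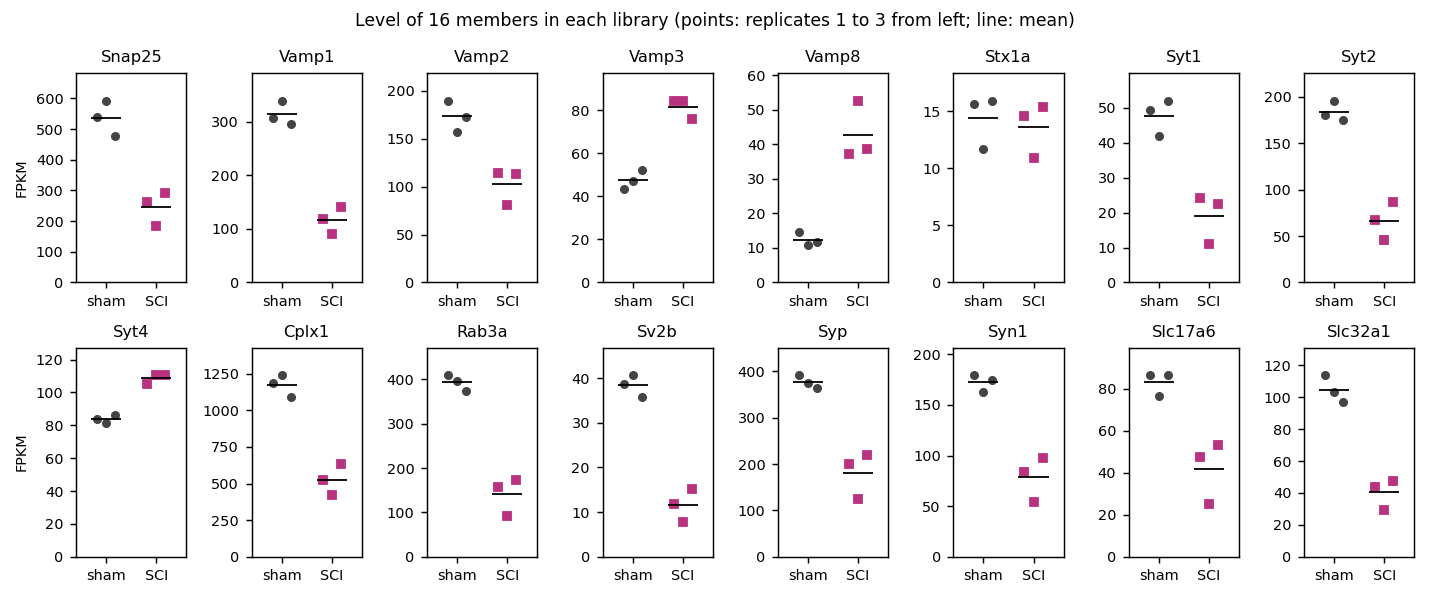
FPKM of 16 members in each library, sham (circles) and SCI (squares), with the group mean as a line; every axis starts at 0. For Vamp3, Vamp8 and Syt4 the SCI points lie above the sham points, for Stx1a they overlap, and for the other 12 genes they lie below.

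All 9 members of the active zone and of the Rab3 system were lower. Rab3a, the vesicle GTPase that tethers vesicles to RIM, was at 410.1, 395 and 374 FPKM in the sham libraries and 158, 92.8 and 174 in the SCI libraries, a 2.77-fold fall (log2 change -1.51, SE 0.22, adjusted p = 0.0012), and Rab3c, a related form, fell by 1.26 on the log2 scale. Rph3a (rabphilin), an effector of Rab3a, was at 313, 335 and 302 FPKM in the sham libraries and 129.6, 108 and 148 in the SCI libraries, a 2.46-fold fall (SE of the log2 change 0.12, adjusted p = 0.00017), the smallest adjusted p among the members. Among the scaffolds, Rims1 was at 23.0, 22.9 and 22.1 FPKM in the sham libraries and 9.31, 6.84 and 10.5 in the SCI libraries (log2 change -1.28, SE 0.14, adjusted p = 0.00038). Pclo and Bsn, which encode the large proteins Piccolo and Bassoon, fell by 1.03 and 0.91, and Rims2 fell by 0.74. The priming factors Unc13a and Unc13c, which open syntaxin for SNARE assembly, fell by 0.82 and 0.83. Falls in this group therefore ranged from 1.74-fold for Rims2 to 2.77-fold for Rab3a in mean FPKM. Nsf, the ATPase that pulls used SNARE complexes apart, and Napb, the brain form of its adaptor SNAP, fell by 1.20 and 0.99, and Nsf went from 232 ± 12.2 to 103 ± 25.7 FPKM.

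Vesicle membrane proteins and synapsins were lower in 8 of 10 cases. Sv2b had the largest fall of all members. SV2 proteins are transporter-like glycoproteins of the vesicle, and Sv2b (chromosome 7 from 75114894 to 75309262) was at 38.6, 40.8 and 35.8 FPKM in the sham libraries and 11.8, 7.72 and 15.1 in the SCI libraries, a 3.32-fold fall (log2 change -1.69, SE 0.21, adjusted p = 0.00057). Sv2a, the target of the drug levetiracetam, was at 220.5, 204 and 212 FPKM in the sham libraries and 133, 75.5 and 133 in the SCI libraries (log2 change -0.94, SE 0.21, adjusted p = 0.0072). Sv2c fell by 1.04 on the log2 scale, between the other two. Syp (synaptophysin), a standard marker of presynaptic terminals, was at 393, 375 and 364 FPKM in the sham libraries and 200.5, 124 and 219.7 in the SCI libraries (log2 change -1.10, SE 0.20, adjusted p = 0.0032). The synaptogyrins Syngr1 and Syngr3, of the same membrane protein family, fell by 0.96 and 0.90. Sypl (pantophysin), the form of that family found in most tissues, was at 32.6, 36.1 and 40.8 FPKM in the sham libraries and 35.8, 28.9 and 31.7 in the SCI libraries, with overlapping groups (log2 change -0.18, SE 0.11, adjusted p = 0.21).

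Synapsins bind vesicles to the actin skeleton in the reserve pool, and each of the 3 genes holds a gene for a tissue inhibitor of metalloproteinases within it, on the opposite strand. Syn1 was at 179.8, 162 and 175 FPKM in the sham libraries and 84.1, 54.0 and 97.3 in the SCI libraries (log2 change -1.17, SE 0.20, adjusted p = 0.0024), while Timp1, inside Syn1, was at 2.75, 2.04 and 2.34 FPKM in the sham libraries and 394, 720.2 and 243 in the SCI libraries. Host and inner gene moved in opposite directions here. Syn2 was at 83.6, 77.4 and 80.5 FPKM in the sham libraries and 34.9, 22.4 and 37.6 in the SCI libraries (log2 change -1.35, SE 0.18, adjusted p = 0.00081), while Timp4 inside it had a log2 change of 0.041 (adjusted p = 0.78). Syn3 was low, at 1.76, 1.83 and 1.46 FPKM in the sham libraries and 1.25, 0.78 and 1.17 in the SCI libraries, beside Timp3 at 52.3 ± 5.29 to 87.6 ± 19.3 FPKM. Its injured libraries lay below the sham libraries, yet the change did not pass (log2 change -0.38, SE 0.15, adjusted p = 0.069), except under quantile normalization (log2 change -0.47, adjusted p = 0.026) and without the mean-variance trend (adjusted p = 0.032). The libraries kept the strand of the RNA, but the strand setting used for quantification is not given in the sources used here. How well reads of the synapsins were kept apart from those of the genes inside them is therefore unknown. Syn3 is the most exposed because Timp3 was far above it in every library.

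The stretch before Syn1 is shown because Syn1 was the only 1 of the 36 matched members whose promoter held a cAMP response element, which 1.55% of all promoters in the table have. It lies at chrX:20921005-20921168 on the minus strand (164 bases, RefSeq, GRCm38.p6), and stops 1 base before the gene in the files. Capitals mark, in order, 2 copies of the left part of RE1 (CAGCACC) and then the cAMP response element, which start 230, 176 and 159 bases before the RefSeq start.
Syn1: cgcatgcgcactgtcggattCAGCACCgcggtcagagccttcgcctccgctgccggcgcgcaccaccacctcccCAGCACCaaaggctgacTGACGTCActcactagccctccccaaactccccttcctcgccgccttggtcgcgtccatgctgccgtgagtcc

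Genes that give a terminal its transmitter were lower in all 5 cases that could be tested, 4 of inhibitory and 1 of excitatory neurons. Slc32a1, the vesicular transporter for GABA and glycine, was at 114, 103 and 97.1 FPKM in the sham libraries and 43.9, 29.4 and 47.7 in the SCI libraries (log2 change -1.38, SE 0.17, adjusted p = 0.00066). Slc6a5, the plasma membrane glycine transporter of glycinergic terminals, was at 123, 136 and 120.2 FPKM in the sham libraries and 53.6, 37.0 and 59.7 in the SCI libraries (log2 change -1.35, SE 0.17, adjusted p = 0.00064). The groups did not overlap for either gene. The GABA-synthesizing enzymes Gad1 and Gad2 were lower by 1.21 and 0.92 on the log2 scale, with Gad1 at 58.0, 49.6 and 53.3 FPKM in the sham libraries and 30.0, 15.4 and 24.9 in the SCI libraries. The Gad2 promoter was 1 of 3 member promoters with the right part of RE1 (GGACAGC), beside those of Rph3a and Sypl. Slc17a6, the main vesicular glutamate transporter of spinal interneurons, was at 86.7, 76.4 and 86.6 FPKM in the sham libraries and 47.6, 25.3 and 53.2 in the SCI libraries (log2 change -1.03, SE 0.25, adjusted p = 0.011), with the lowest value in SCI replicate 2. Slc17a7, which loads glutamate in corticospinal and large sensory neurons, was too low to test, at 0.05, 0.16 and 0.11 FPKM in the sham libraries and 0.70, 0.73 and 1.51 in the SCI libraries. All injured values were above the sham values, and the highest was in SCI replicate 3. Markers of sensory ganglion neurons were also highest there: the 8 summed to 121 FPKM, against 31.5 and 32.2 in SCI replicates 1 and 2 and 54.6 to 66.3 in the sham group, and Scn10a and Mrgprd were at 0 in the other 5 libraries. Their part in the Slc17a7 values was not tested. With no filter on low values its log2 change was 0.82 (adjusted p = 0.014). Slc17a8, the third transporter of this family, was between 0.28 and 1.07 FPKM in the 6 libraries.

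Whether the members fell by more than neuronal transcripts in general was examined by subtracting, in each library, the mean log2(FPKM + 1) of the 12 pan-neuronal genes, none of them a member, and fitting all genes again. These 12 genes, of which 11 were themselves lower and Tubb3 did not pass, are Rbfox3, Elavl3, Elavl4, Eno2, Uchl1, Map2, Tubb3, Thy1, Stmn2, Nefl, Nefm and Nefh. Their own median log2 change was -1.09, close to the members' -1.03. On this scale 31 of the 43 members did not pass, 9 were higher and 3 were lower, where 80.9% of all genes tested were higher and 0.499% lower. The median over the members was 0.074, and 34 of the 43 lay within 0.5 of 0. Snap25 was at -0.033 (SE 0.17, adjusted p = 0.86), Syp at 0.013 (SE 0.17, adjusted p = 0.94) and Slc17a6 at 0.074 (SE 0.18, adjusted p = 0.71). A p above the threshold does not show that a gene followed the neuronal mean.

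The 3 members lower than the neuronal mean were Sv2b at -0.58 (SE 0.19, adjusted p = 0.0091), Rab3a at -0.41 (SE 0.17, adjusted p = 0.036) and Syt2 at -0.39 (SE 0.17, adjusted p = 0.041). These calls rested on few libraries and on the reference. None of the 3 passed without sham replicate 1 or without sham replicate 2, and Sv2b alone passed without sham replicate 3, without SCI replicate 1 or without the mean-variance trend. Without SCI replicate 2, 6 members were lower, these 3 and Rph3a, Syt3 and Vamp1. With a reference of 9 genes that leaves out the neurofilaments, chosen after seeing the data, 10 members were lower, among them Vamp1, Syn2, Slc32a1 and Slc6a5. The 9 higher members were Vamp8 (2.81), Vamp3 (1.88), Syt4 (1.48), Stx3 (1.14), Stx4a (1.09), Stx1a (1.03), Sypl (0.93), Syn3 (0.73) and Syt11 (0.46). Syn3 and Syt11 lost their calls when sham replicate 1, 2 or 3 or SCI replicate 1 was left out, and with the reference lacking neurofilaments (adjusted p = 0.087 and 0.13). Syn3 also lost its call with a pseudocount of 0.1 or 0.5 (adjusted p = 0.22 and 0.072).

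**Figure D3:**
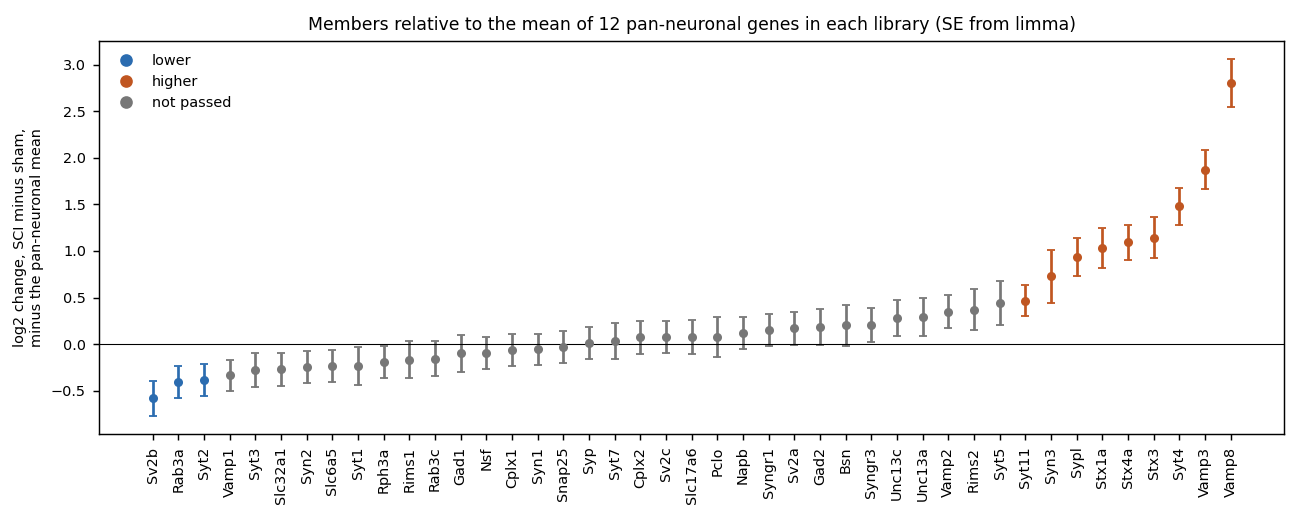
Log2 change of each tested member after subtracting the mean of 12 pan-neuronal genes in each library, with limma's standard error, ordered by size. Most members lie within 0.5 of 0, Sv2b is lowest at -0.58 and Vamp8 highest at 2.81.

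Ratios between pairs of members within a library depend little on the scaling between libraries. Of 12 ratios, 8 had groups that did not overlap. Each had p = 0.1 in a two-sided exact permutation test, the smallest p that 3 libraries against 3 allow, and adjusted p = 0.15 over the 12, so none could pass. No share over other gene pairs was computed, and single genes lay fully below in 36.9% and above in 30.7% of cases. Vamp8 and Vamp3 to Vamp2 and Slc17a7 to Slc17a6 had to separate, since the first gene lay above sham and the second below. Slc17a7 was also too low to test, at 0.05 to 1.51 FPKM. The log2 ratio of Vamp1 to Vamp2 was 0.69, 1.11 and 0.77 in the sham libraries and 0.053, 0.14 and 0.32 in the SCI libraries. Vamp1 stayed the more abundant of the pair in every injured library, by a smaller margin than in any sham library. The ratio of Rims1 to Rims2 was 0.86, 0.93 and 0.90 in the sham libraries and 0.18, 0.39 and 0.51 in the SCI libraries, and that of Sv2b to Sv2a was -2.48, -2.30 and -2.54 in the sham libraries and -3.38, -3.13 and -3.05 in the SCI libraries. Gad2 against Gad1 moved by 0.28, from -0.49 ± 0.04 to -0.21 ± 0.10 (SD, n = 3 per group). Syt2 against Syt1 overlapped between the groups (exact permutation p = 0.6), as did Cplx1 against Cplx2 (exact p = 0.6) and Sv2c against Sv2a (exact p = 0.6). The log2 ratio of Slc17a6 to Slc32a1, which sets a glutamate against an inhibitory transporter, was -0.39, -0.43 and -0.16 in the sham libraries and 0.11, -0.21 and 0.15 in the SCI libraries, and the groups overlapped (exact p = 0.2, adjusted p = 0.267).

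**Figure D4:**
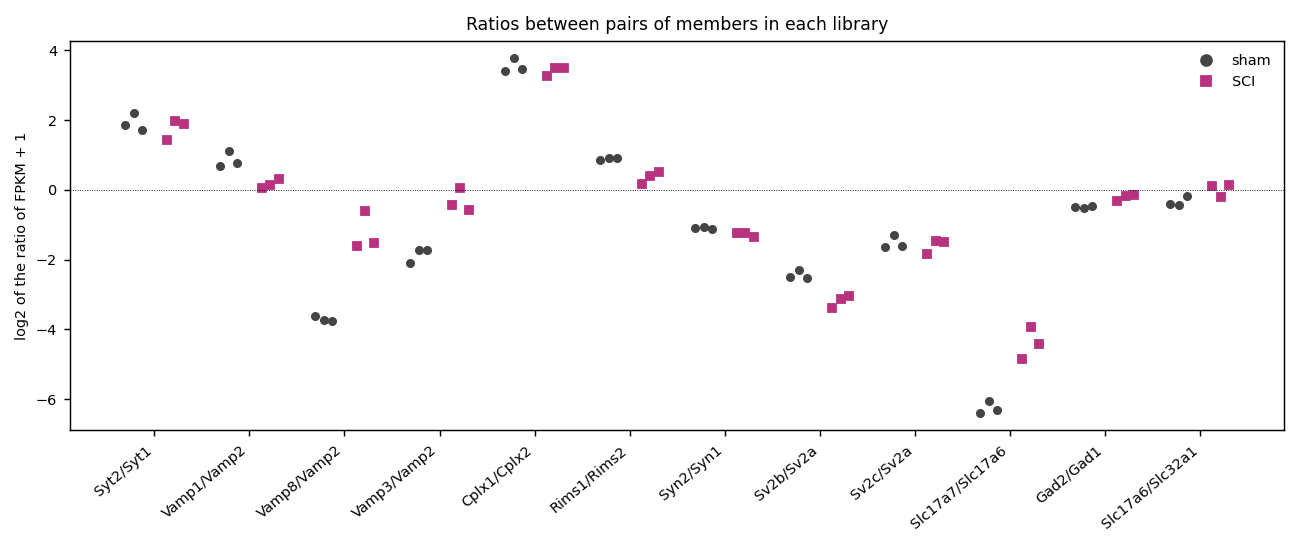
Log2 ratio of FPKM + 1 for 12 pairs of members in each of the 3 sham and 3 SCI libraries. The groups are apart for 8 pairs, most for Vamp8 to Vamp2, and overlap for Syt2 to Syt1, Cplx1 to Cplx2, Sv2c to Sv2a and Slc17a6 to Slc32a1.

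Other genes of the pathway came from 4 lists. Of 95 listed, Vamp7 was not analysed here, and of the other 94 there were 89 that could be tested: 62 were lower, 12 higher and 15 did not pass, with a median log2 change of -0.63. Over all genes tested 30.8% were lower and 26.7% higher, so rises were rarer here than among all genes. These shares also apply to the lists that follow. The release list had 27 of 43 lower and 8 higher. Doc2a, a calcium-binding protein of vesicle release, fell by 1.51, and Snap47, a SNAP-25 relative, fell by 0.92. The 2 largest rises were SNAREs known from other tissues: Vamp5, known from muscle, went from 3.69 ± 0.79 to 10.5 ± 3.09 FPKM, and Snap23, the SNAP-25 relative of most tissues, from 9.80 ± 0.89 to 24.5 ± 3.97 FPKM (log2 change 1.23, SE 0.13, adjusted p = 0.00027). Snap23 therefore rose where Snap25 fell, as Vamp3 and Vamp8 rose where Vamp1 and Vamp2 fell. Not every SNARE known from other tissues rose: Stx3 and Stx4a did not pass (log2 changes 0.033 and -0.013).

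Among other vesicle proteins 10 of 13 were lower and 2 higher. Sncb (beta-synuclein) and Scamp1, a carrier membrane protein, fell 2.43-fold and 1.91-fold, and Atp6v1b2, a subunit of the pump that acidifies vesicles, fell by 0.76 on the log2 scale. Syngr2, the synaptogyrin of non-neuronal cells, rose 2.54-fold, from 17.6 ± 1.80 to 44.6 ± 1.63 FPKM (SE of the log2 change 0.09, adjusted p = 5.3e-05), against the falls of Syngr1 and Syngr3. Vat1 rose by 1.29. Vesicle retrieval genes had 15 of 22 lower and 2 higher: Dnm1, the dynamin of neurons, and Sh3gl2, or endophilin A1, fell by 1.35 and 1.59, whereas Picalm, a clathrin adaptor, and Sh3gl1, the endophilin of most tissues, rose by 0.59 and 0.60. Ap2m1, a subunit of the general clathrin adaptor, was at 201, 177 and 189 FPKM in the sham libraries and 188, 162 and 191 in the SCI libraries and did not pass.

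Other transmitter genes had 10 of 11 lower and none higher. The cholinergic genes fell furthest: Slc5a7, the choline transporter, was at 38.8, 48.4 and 39.9 FPKM in the sham libraries and 5.30, 4.56 and 8.22 in the SCI libraries, and Slc18a3, the vesicular acetylcholine transporter, at 39.7, 45.1 and 35.8 FPKM in sham and 6.60, 5.05 and 12.0 FPKM in SCI. Slc18a3 lies within Chat on the same strand, so their reads may be shared. Relative to the neuronal mean they were at -1.55 (SE 0.20, adjusted p = 3.6e-06) and -1.18 (SE 0.21, adjusted p = 7.4e-05), while Slc32a1 was at -0.27 and Slc17a6 at 0.074 without passing. Slc6a11, a GABA transporter of astrocytes, fell from 216 ± 14.2 to 56.0 ± 10.4 FPKM (log2 change -1.94, SE 0.13, adjusted p = 5.2e-05), and Slc6a9, the glycine transporter of astrocytes, fell by 0.62. Of 8 astrocyte markers 4 were higher and 4 lower, and their summed level was 2239 to 2439.7 FPKM in sham and 3831 to 4039.6 FPKM in SCI. Gfap made up most of the SCI sum, at 641 FPKM in sham and 2781 in SCI on average. The 7 others summed to 1616 to 1855 FPKM in the sham group, against 1104 to 1273 in the injured group. Aldoc made up most of that sham sum, at 1094 FPKM in sham and 549 in SCI on average. Besides Gfap, Aqp4, Aldh1l1 and Sox9 were higher, and Aldoc, Slc1a2, Slc1a3 and Gja1 were lower.

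**Figure D5:**
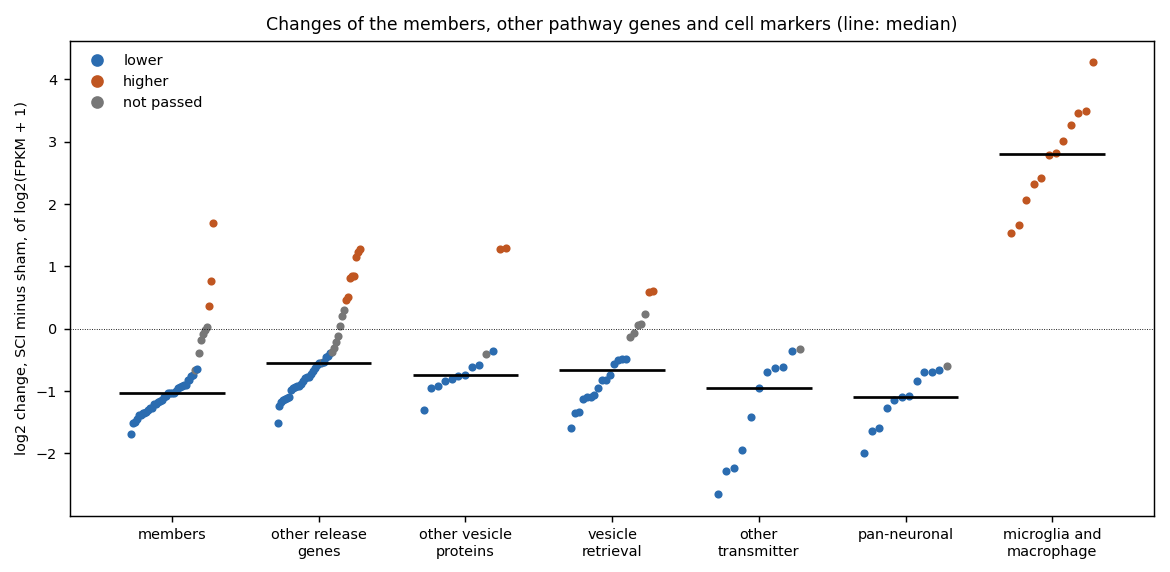
Log2 change of each tested gene in the members' list, in 4 lists of other pathway genes and in the pan-neuronal and microglia and macrophage markers, with the median as a line. The members' median (-1.03) lies near that of the pan-neuronal genes (-1.09), and all 12 microglia and macrophage markers lie at 1.54 or above.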

How the data were processed

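RNA-seq libraries of mouse spinal cord (3 sham, 3 SCI) were used as deposited. Their values, per the file headers, are FPKM per gene that the authors computed. Tools named by the submitters' processing notes, with no role or order, were StringTie 1.3.4d, HISAT2 2.0.4 and cutadapt 1.9, as well as UMI-tools, edgeR and DESeq2. Those notes give the build as mm9, but 33485 of 36502 gene positions (91.7%), and 40 of the 45 members', equal those of GENCODE M21 on GRCm38, and positions are printed on that build. Poly(A) RNA was used, with molecular identifiers in the adapters, per the labels' protocols. FPKM keep no read counts, so depth is unknown and no count test was run.

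Computed here was log2(FPKM + 1) for the 17435 genes at 1 FPKM or more in 3 or more libraries, fitted with limma 3.58.1 (R 4.3.3, mean-variance trend, group as the only term). P-values were adjusted by Benjamini-Hochberg over all genes tested, with 0.05 as threshold. Log2 changes are SCI minus sham on log2(FPKM + 1) and understate the change of low genes. SE is limma's, and values after ± are SD with n = 3. Folds in the text are ratios of mean FPKM. Ratios of members were compared with exact permutation tests (SciPy 1.17.1). The fit was tested on simulated data. Promoters were RefSeq's on GRCm38.p6, printed without bases that lie inside the gene. The members and all lists were chosen with earlier results of these data known. All members could be named, and of each list of other pathway genes the 2 largest rises, the 2 largest falls and the 2 most abundant. Results for some genes of these lists are not reported here. Camta1, Chat, Ly6g, Elane, Scn10a, Mrgprd, the astrocyte markers, the pan-neuronal genes and the Timp genes were named beyond that rule. So were the genes in the closing observations. Alternatives were other pseudocounts, filters and scalings, no trend, a replicate block and each library left out.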

Additional observations from a re-analysis of the deposited data

How the results depend on the processing

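Each of the 43 member changes was computed under 15 alternatives, 645 values in all. Of these, 634 kept direction and side of the threshold, none lost its call, 4 gained one (Syn3 and Syt5) and 7 changed sign, all of Stx1a, Stx3 or Stx4a, which had not passed. Stx4a was at 0.067 under median-ratio scaling and 0.0045 under quantile normalization, and from -0.055 to 0.049 with a library left out (0.0043 without sham replicate 1). Stx3 was at -0.013 under quantile normalization and from -0.0060 to 0.073 with a library left out, and Stx1a from -0.21 to 0.064. The counts of members and of other pathway genes that were lower or higher stayed within 1.5 times. The number of members lower than the neuronal mean (3) did not: it was 1 without the trend, 10 with the reference lacking neurofilaments, and 0 to 6 with a library left out. Those 0 came without sham replicate 1 (0 at an unadjusted p under 0.05 in limma) and without sham replicate 2 (1). Correlations of deviations were -0.0076, -0.039 and 0.022 for same-numbered libraries (replicates 1, 2 and 3). They were -0.035 to 0.038 for differently numbered ones. Values this small do not show whether the titles' numbers pair the libraries. With the replicate block 35 members were lower, 3 higher and 0 lower than the neuronal mean (1 at an unadjusted p under 0.05), and Syn3 and Syt11 were no longer higher than it (adjusted p = 0.065 for both). Depth is unknown, so no limit from counting can be given for low genes such as Syn3, Slc17a7 and Slc17a8.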

Other observations

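Gamma-synuclein (Sncg), in the list of other vesicle proteins, was singled out after its values were seen. It was at 201, 195 and 180.1 FPKM in the sham libraries and 86.4, 88.8 and 171 in the SCI libraries, so that SCI replicate 3 stood near the sham level. It passed as lower in limma (log2 change -0.80, SE 0.25, adjusted p = 0.027). Sncg is known as an abundant transcript of sensory ganglion neurons, and SCI replicate 3 was the library in which Scn10a (6.60 FPKM) and Avil (17.3 FPKM) were found, where the other injured libraries had 0 and at most 0.42 FPKM. Beta-synuclein (Sncb) was at 94.1, 65.2 and 111 FPKM in SCI replicates 1, 2 and 3 and followed the members. The part of ganglion tissue in the Sncg value was not tested.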
